A study of Mus musculus with 10 samples.

Results

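The genes described here are the replication-dependent histone genes, which encode the bulk of the histones that package newly made DNA. They were chosen by symbol: every row of the count table whose GENCODE M21 symbol begins with Hist1h, Hist2h, Hist3h or Hist4h, and that had at least 10 counts in at least 3 libraries. The annotation holds 70 such genes, all 70 were rows of the table, and 53 passed the count filter, out of 21664 genes that passed among 52227 in all. Of these 53 genes, 5 encode linker histone H1, 11 encode H2A, 16 encode H2B, 10 encode H3 and 11 encode H4. Hist1h2al and Hist3h2bb-ps, both tested, are annotated as pseudogenes, and Hist1h2ba, which is known as a testis histone, was near the lower end of detection.

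RNA was sequenced from the cortical hem (CH), a signaling center at the medial edge of the telencephalon, of mouse embryos at e13.5. There were 5 wild-type embryos and 5 Lmx1a-/- embryos, with 1 library from each embryo. The Lmx1a-/- embryos were homozygous for the dreherJ (drJ) allele of Lmx1a, the gene of a LIM-homeodomain transcription factor, and the wild-type embryos were their littermates. Both groups were kept on a mixed C57Bl6, FVB and CD1 background, and neither received a treatment. The study used both sexes, which were not balanced between these groups, as described below. The entire CH was cut from frozen sections by laser, with its boundaries taken from Lmx1a staining of neighboring sections, and the pieces of 1 embryo were pooled.

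Replication-dependent histone genes are transcribed in S phase, when DNA is copied, and their mRNAs are removed when S phase ends. Their mRNAs are the only known animal mRNAs that normally end without a poly(A) tail: the 3' end is cut just after a short stem-loop, which is bound by the stem-loop binding protein Slbp. H2A, H2B, H3 and H4 form the core of the nucleosome and H1 binds the DNA between nucleosomes. Variant histones such as H2afz and H3f3b are made throughout the cell cycle from ordinary polyadenylated mRNAs.

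Library totals lay between 19145952 and 36462780 counts, and mitochondrial genes took 20.6% to 27.6% of them. All 11 markers on a CH list passed the count filter, among them Wnt3a, Wnt2b and Lmx1a itself, whose mean was 71.2 normalized CPM (counts scaled to the size of each library) for wild type and 114 for the mutant. The counts cannot separate drJ from wild-type transcripts, so they do not check the genotype. Xist was between 4515 and 5127 CPM in wild-type embryos 2 to 5 and at most 1.10 CPM in wild-type embryo 1 and all 5 Lmx1a-/- embryos, while Y-linked transcripts showed the opposite. Sex and genotype therefore cannot be told apart outside wild-type embryo 1, and Lmx1a-/- embryos 4 and 5 stood apart from the other mutant embryos in histone levels, so results are given with and without these libraries.

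The stem-loop was located in the annotated transcripts of 44 of the 70 genes, and 35 of the 53 tested genes had one. It is shown for the H1, H2A, H2B, H3 and H4 genes that the results below turn on, read 5' to 3' as DNA letters of the GENCODE M21 transcripts, with the stem and loop in capitals and the neighboring bases in lower case.
Hist1h1d: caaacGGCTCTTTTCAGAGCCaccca
Hist1h1e: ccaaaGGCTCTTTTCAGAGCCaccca
Hist2h2ac: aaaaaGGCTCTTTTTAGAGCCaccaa
Hist1h2be: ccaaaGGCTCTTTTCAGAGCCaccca
Hist1h2bm: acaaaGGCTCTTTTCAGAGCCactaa
Hist1h3b: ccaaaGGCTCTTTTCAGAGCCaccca
Hist1h3c: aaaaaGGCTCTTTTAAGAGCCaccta
Hist1h4d: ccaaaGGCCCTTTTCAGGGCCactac
Hist1h4j: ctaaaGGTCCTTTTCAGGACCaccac
In this order the capitals lie at chr13:23555787-23555802 (plus strand), chr13:23621782-23621797 (minus strand), chr3:96220418-96220433 (minus strand), chr13:23585531-23585546 (minus strand), chr13:21722506-21722521 (plus strand), chr13:23752820-23752835 (plus strand), chr13:23745047-23745062 (minus strand), chr13:23581950-23581965 (plus strand) and chr13:21735437-21735452 (plus strand) of GRCm38, all within exons of these genes. The stem begins with GGCTCT in 33 genes, 26 of them tested, and all 33 encode H1, H2A, H2B or H3. It begins with GGCCCT in 9 genes and with GGTCCT in 2 genes, and all 11 of these encode H4. The annotated transcript runs on after the stem-loop by 11 to 4884 bases in the 35 tested genes, and by more than 1000 bases in 8 of them, so many models include sequence downstream of the normal 3' end. In the annotated transcripts of the other 18 tested genes the search found none, which says nothing of the bases beyond them.

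Genes of all 5 histone classes were lower in Lmx1a-/- CH. With edgeR's quasi-likelihood test across all 21664 genes and a false discovery rate (FDR) under 0.1, 17 of the 53 were lower and 0 were higher, where 2.29% of all genes tested were called lower and 1.72% higher. At an unadjusted p under 0.05, 35 were lower and 0 were higher, beside 8.7% and 7.66% of all genes tested, shares that also stand behind every unadjusted count of the other gene lists given further on. A log2 fold change below 0 was found for 50 of the 53, beside 50.6% of all genes tested. DESeq2's Wald test called 24 lower and 0 higher, where it called 4.51% of all genes lower and 3.65% higher. The median log2 fold change was -0.98, beside -0.005 over all genes tested. The 17 genes past the threshold were Hist1h1a, Hist1h1b, Hist1h1d and Hist1h1e for H1, Hist2h2ac for H2A, Hist1h2bb, Hist1h2be, Hist1h2bf, Hist1h2bk, Hist1h2bl and Hist1h2bm for H2B, Hist1h3b, Hist1h3c, Hist1h3f and Hist1h3g for H3, and Hist1h4d and Hist1h4j for H4. Every wild-type library lay above every Lmx1a-/- library for 14 of the 53 genes, beside 2.27% of all genes tested, and the reverse held for 0 of the 53, beside 2.17%. Because a library is a sum over all cells in the cut tissue, fewer cells with histone mRNA and less histone mRNA per cell cannot be told apart. The summed level of 43 DNA replication genes, which are also active in S phase, was 95.9% of wild type in the mutant embryos. The histone sum described next was 48.4% of wild type. The sum of 4 other RNAs without a poly(A) tail, at most 7.42 CPM in a library, was 46.9% of wild type. Over 210 tested genes of small RNA biotypes, whose overlap with other genes was not examined, the median log2 fold change was 0.04. The part of these RNAs in the histone result was not tested, nor was how fully each library captured RNA without a poly(A) tail.

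The summed level of the 53 genes was 2084, 1733, 1999, 1621 and 1291 CPM in wild-type embryos 1 to 5 and 997, 1041, 1202, 537 and 448 CPM in Lmx1a-/- embryos 1 to 5. The 2 groups did not overlap, and Lmx1a-/- embryos 4 and 5 were the lowest of all 10. The mutant mean of 845 ± 333 CPM was 48.4% of the wild-type mean of 1746 ± 317 CPM (SD, n = 5 per genotype). Wild-type embryo 1, the only wild-type embryo with Y-linked transcripts, had the highest sum of all 10. As the Lmx1a-/- embryos all had Y-linked transcripts, only 1 wild-type embryo matched them in this, and the part of sex was not tested. The 5 genes with the highest mean level, Hist1h1e, Hist1h1b, Hist1h4d, Hist1h2bl and Hist1h2bm, made up 61.98% of the wild-type sum and 57.5% of the mutant sum. Without these 5 genes, the sum over the other 48 was 510 to 782 CPM in wild-type and 208 to 474 CPM in mutant embryos, again without overlap.

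**Figure D1:**
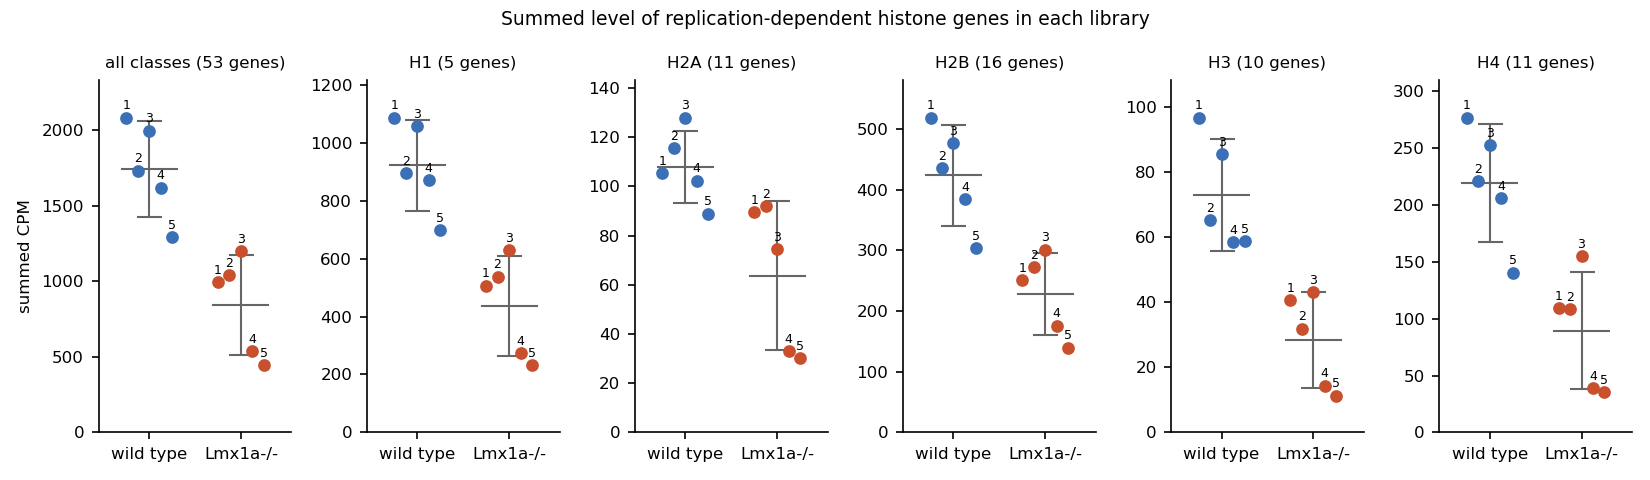
Summed CPM of the tested histone genes in each library, for all classes and for each class, with points numbered by embryo (blue, wild type; red, Lmx1a-/-), lines at the mean and bars of 1 SD (n = 5 per genotype); each panel has its own axis from 0. For all classes the wild-type libraries lie between 1291 and 2084 CPM and the Lmx1a-/- libraries between 448 and 1202 CPM, and embryos 4 and 5 are the lowest mutant libraries in every panel.

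The mean summed level was below that of wild type in each class. H1 genes summed to 922 ± 157 CPM in the wild-type and 435 ± 174 CPM in the Lmx1a-/- embryos, or 47.3% of wild type, and made up between 50.8% and 54.1% of the histone sum in every library. The H2A sum was at 59.02%, the H2B sum at 53.8%, the H3 sum at 38.8% and the H4 sum at 40.8% of the wild-type mean. The groups did not overlap for the H1, H2B and H3 sums, while for H2A and H4 the highest mutant embryo exceeded the lowest wild-type embryo. In Lmx1a-/- embryos 4 and 5, H2B took 32.8% and 31.2% of the histone sum and H4 took 7.30% and 7.86%, against 23.5% to 26.1% and 10.4% to 13.3% in the other 8 libraries. These sums cover only reads that could be assigned to 1 gene, so the shares of the classes are not shares of the histone mRNA made.

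H1, the linker histone class, had the largest share of members past the threshold, with 4 of its 5 tested genes lower. All 5 were lower at an unadjusted p under 0.05 (median log2 fold change -1.03), and all 5 had a mean of at least 10 CPM. Of the 20 histone genes at that level 12 were lower, beside 5 of 24 from 1 to under 10 CPM and 0 of 9 below 1 CPM. Medians at these levels were -1.05, -0.96 and -0.94. Hist1h1a (chromosome 13, 23763666 to 23764406, plus strand) had 105, 61.5, 94.8, 72.8 and 64.9 CPM in wild-type embryos 1 to 5 and 41.7, 45.4, 53.4, 36.9 and 31.1 CPM in Lmx1a-/- embryos 1 to 5. Every mutant embryo was below every wild-type embryo. This is a log2 fold change of -0.94 (SE 0.17, FDR = 0.0120 from edgeR's quasi-likelihood test). Hist1h1b (chromosome 13, 21779883 to 21780625, minus strand) had the highest level per length of all 53 genes, at 361 CPM per kb of exon in wild-type and 177 CPM per kb in Lmx1a-/- CH. Its CPM was 322, 265, 313, 237 and 203 in wild-type and 147, 148, 186, 95.4 and 79.5 in mutant embryos, again without overlap. On the log2 scale it differed by -1.03 (SE 0.21, FDR = 0.0210 from edgeR's quasi-likelihood test).

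Hist1h1e, whose stem-loop is printed above, had the highest CPM of the histone genes, at 505, 417, 504, 427 and 331 in wild-type and 249, 243, 286, 99.3 and 86.4 in Lmx1a-/- embryos. The groups did not overlap, and mutant embryos 4 and 5 were far below the other 3. This gave a log2 fold change of -1.18 (SE 0.29, FDR = 0.0561 from edgeR's quasi-likelihood test). Hist1h1d fell from 71.5 ± 14.2 to 28.7 ± 14.0 CPM (SD, n = 5 per genotype), a log2 fold change of -1.32 (SE 0.28, FDR = 0.0308 from edgeR's quasi-likelihood test), without overlap. The remaining H1 gene, Hist1h1c, stood at 65.8 ± 9.57 and 40.97 ± 19.4 CPM in the 2 genotypes and did not pass (log2 fold change -0.69, SE 0.27, FDR = 0.210 from edgeR's quasi-likelihood test). Hist1h1t, a testis-type H1 gene, was the sixth annotated member and was not tested, with at most 18 counts in a library.

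H2B, a core histone that pairs with H2A, had 6 of 16 tested genes lower and 12 at an unadjusted p under 0.05 (median log2 fold change -0.89). Hist1h2be had the smallest FDR of all histone genes. It had 58.2, 43.5, 56.2, 48.4 and 27.7 CPM in the wild-type and 20.1, 26.6, 23.1, 18.6 and 14.0 CPM in the Lmx1a-/- embryos, so that the lowest wild-type embryo stood just above the highest mutant embryo. Its log2 fold change was -1.20 (SE 0.20, FDR = 0.00796 from edgeR's quasi-likelihood test). The gene model of Hist1h2be (chromosome 13, 23583670 to 23621124, minus strand) reaches into Hist1h1e on the same strand, with 496 bases of span shared, so reads of that stretch belong to neither gene with certainty.

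Hist1h2bm (chromosome 13, 21722044 to 21722567, plus strand), with a short model that ends 46 bases after its stem-loop, had 121, 97.3, 106, 77.1 and 58.7 CPM in the wild-type and 43.4, 41.6, 47.7, 23.6 and 18.0 CPM in the Lmx1a-/- embryos. The groups did not overlap. In log2 terms the difference was -1.41 (SE 0.26, FDR = 0.0135 from edgeR's quasi-likelihood test). Hist1h2bl, Hist1h2bf and Hist1h2bk fell to 53.9%, 43.3% and 43.3% of their wild-type means, with log2 fold changes of -0.89, -1.21 and -1.21 (FDR = 0.0501, 0.0436 and 0.0514 from edgeR's quasi-likelihood test). Hist1h2bb, named after its value was seen, was lower by a smaller amount, from 27.4 ± 4.51 to 17.8 ± 4.49 CPM (log2 fold change -0.63, SE 0.17, FDR = 0.0866 from edgeR's quasi-likelihood test), and its groups overlapped.

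H3 genes, which encode the core histone whose tail carries many of the known chromatin marks, showed the largest fold changes among the genes past the threshold. Of 10 tested H3 genes, 4 were lower (median log2 fold change -1.01). Hist1h3b had 17.9, 9.65, 13.8, 5.81 and 9.71 CPM in the wild-type and 4.12, 4.51, 4.16, 0.609 and 0.730 CPM in the Lmx1a-/- embryos. No mutant embryo reached the lowest wild-type embryo, and embryos 4 and 5 were the lowest. Its log2 fold change was -2.03 (SE 0.52, FDR = 0.0659 from edgeR's quasi-likelihood test), the lowest value of all 53 genes. Hist1h3g (log2 fold change -1.85, SE 0.40, FDR = 0.0315 from edgeR's quasi-likelihood test) and Hist1h3c (-1.81, SE 0.49, FDR = 0.0789 from edgeR's quasi-likelihood test) also had no overlap. Hist1h3f, named after its value was seen, fell from 4.22 ± 1.18 to 1.86 ± 0.681 CPM (FDR = 0.0726 from edgeR's quasi-likelihood test). Hist1h3e, the H3 gene with the highest CPM, had 20.5 ± 3.02 and 9.77 ± 5.98 CPM and did not pass (log2 fold change -1.07, SE 0.38, FDR = 0.171 from edgeR's quasi-likelihood test).

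H4, the most conserved core histone, had 2 of 11 tested genes lower, and all 11 had a log2 fold change below 0 (median -0.92). Hist1h4d, the H4 gene with the highest CPM, had 225, 175, 204, 164 and 108 CPM in the wild-type and 82.0, 79.0, 124, 29.1 and 21.4 CPM in the Lmx1a-/- embryos. Mutant embryo 3 was above wild-type embryo 5, and the other mutant embryos were below all wild-type embryos. The log2 fold change was -1.39 (SE 0.39, FDR = 0.0886 from edgeR's quasi-likelihood test). Hist1h4j fell from 14.9 ± 2.87 to 5.99 ± 3.74 CPM (log2 fold change -1.33, SE 0.38, FDR = 0.0942 from edgeR's quasi-likelihood test). Hist1h4a, at 6.77 ± 1.92 and 3.26 ± 1.80 CPM, did not pass (FDR = 0.188 from edgeR's quasi-likelihood test), although its groups did not overlap.

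H2A, the partner of H2B, had the median furthest from 0 (log2 fold change -1.26) but only 1 of 11 tested genes past the threshold, Hist2h2ac. The SEs of its log2 fold changes ran from 0.26 to 0.88. Hist1h2ac had 19.4, 9.83, 22.1, 10.9 and 16.6 CPM in the wild-type and 9.84, 7.39, 7.12, 0.582 and 1.04 CPM in the Lmx1a-/- embryos. Mutant embryo 1 overlapped wild-type embryo 2, and mutant embryos 4 and 5 were far below the other mutant embryos. The log2 fold change was -1.61 with an SE of 0.59 (FDR = 0.183 from edgeR's quasi-likelihood test). Hist1h2ak, the H2A gene with the highest CPM, had 46.8 ± 14.8 and 26.9 ± 12.7 CPM (log2 fold change -0.80, SE 0.31, FDR = 0.210 from edgeR's quasi-likelihood test). Hist1h2ab did not overlap between groups but did not pass (log2 fold change -1.37, SE 0.48, FDR = 0.171 from edgeR's quasi-likelihood test).

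**Figure D2:**
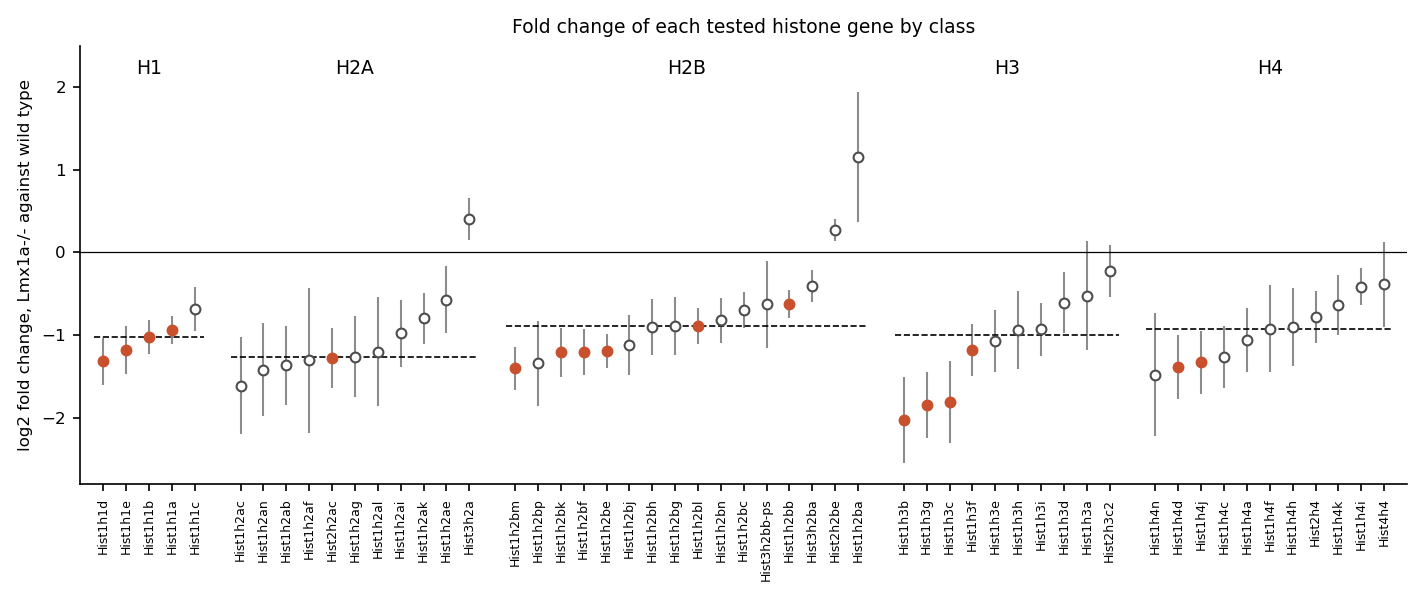
Log2 fold change (Lmx1a-/- against wild type) with its SE for the 53 tested histone genes, ordered within each class; filled points passed an FDR under 0.1, open points did not, and dashed lines mark class medians. All 17 filled points lie below 0, and the 3 points above 0, Hist3h2a, Hist2h2be and Hist1h2ba, are open.

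The genes lie in clusters, and the large cluster of chromosome 13 held most of the genes past the threshold. Hist1 genes lie in a stretch of 328 kb (21715763 to 22043676, 17 genes tested) and one of 404 kb (23531050 to 23934851, 27 genes tested), with Hist1h2al alone at 51202727. In the first stretch 5 genes were lower (median log2 fold change -1.03) and in the second 11 (median -1.07). The summed level was 48.8% and 44.9% of wild type in these stretches, without overlap between groups. The 8 tested genes of the smaller clusters were 4 Hist2 genes on chromosome 3, 3 Hist3 genes on chromosome 11 and Hist4h4 on chromosome 6. Of these 8, 1 was lower, and their median log2 fold change was -0.40, beside -1.07 for the 45 Hist1 genes. This difference between clusters was not tested.

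The Hist2 sum was 92.3% and the Hist3 sum 94.4% of the wild-type mean, and both overlapped between groups. Hist3h2a stood at 12.4 ± 3.51 and 16.5 ± 5.90 CPM in wild-type and mutant embryos (log2 fold change 0.40, SE 0.26, FDR = 0.473 from edgeR's quasi-likelihood test). This gene lies within the span of Trim17 on the same strand. Overlap of their exons was not examined, so the reads of Hist3h2a may be uncertain. Hist3h2ba had 23.9 ± 4.83 and 18.0 ± 4.87 CPM (log2 fold change -0.41, SE 0.19, FDR = 0.313 from edgeR's quasi-likelihood test). Hist2h4 (log2 fold change -0.78, SE 0.31), Hist2h3c2 (-0.23, SE 0.31), Hist3h2bb-ps (-0.63, SE 0.53) and Hist4h4 (-0.39, SE 0.51) also did not pass, with FDR between 0.229 and 0.775 from edgeR's quasi-likelihood test. Hist4h4 was at only 1.18 and 0.903 CPM, with at most 51 counts in a library.

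**Figure D3:**
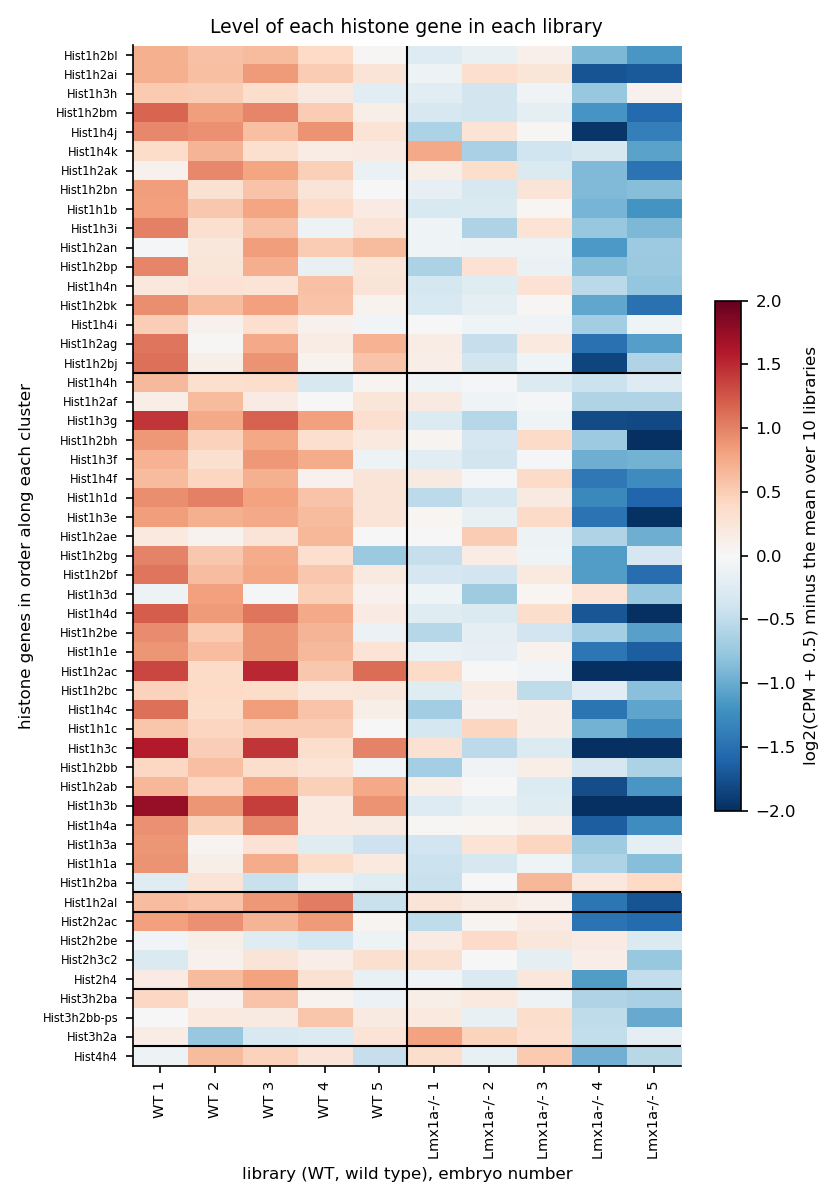
Level of each tested histone gene in each library as log2(CPM + 0.5) minus its mean over the 10 libraries, with genes in order along each cluster (top to bottom: the 2 main Hist1 stretches, Hist1h2al, Hist2, Hist3 and Hist4h4, divided by lines). Wild-type columns are mostly red and Lmx1a-/- columns mostly blue, with embryos 4 and 5 the darkest blue. These 2 embryos are the lowest for 40 of the 53 genes.

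Many H2A and H2B genes are arranged head to head and start close together, so that the partners share 1 stretch of promoter DNA. There were 14 such pairs with starts within 500 bases, 8 of them with both genes tested. The pair Hist2h2ac and Hist2h2be, with 239 bases between the starts, joined the only H2A gene past the threshold to one of the 3 histone genes with a log2 fold change above 0. The 300 bases around the start of Hist2h2ac, from RefSeq's GRCm38.p6 (chr3:96220831-96221130, minus strand), hold the whole stretch between both starts and are printed with the TATA box (TATAAA), the letters CCAAT and the octamer ATGCAAAT, on either strand, in capitals.
Hist2h2ac: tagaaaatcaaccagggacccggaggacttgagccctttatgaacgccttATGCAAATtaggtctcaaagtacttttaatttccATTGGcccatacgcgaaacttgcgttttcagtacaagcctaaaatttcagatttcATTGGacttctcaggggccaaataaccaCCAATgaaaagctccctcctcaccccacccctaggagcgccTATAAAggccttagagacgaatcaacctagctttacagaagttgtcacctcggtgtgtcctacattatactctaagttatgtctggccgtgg
Hist2h2ac had 11.01, 11.7, 10, 11.2 and 6.24 CPM in the wild-type and 4.09, 6.25, 6.81, 1.86 and 1.74 CPM in the Lmx1a-/- embryos. Wild-type embryo 5 lay among the mutant embryos and the others were above them. The log2 fold change was -1.28 (SE 0.36, FDR = 0.0931 from edgeR's quasi-likelihood test), and the gene passed in 3 of the 10 fits that left out 1 embryo. Hist2h2be had 24.8, 28.1, 21.8, 20.3 and 24.1 CPM in wild-type and 29.0, 33.9, 30.3, 29.1 and 21.1 CPM in mutant embryos. Of the mutant embryos, 4 were above all wild-type embryos and embryo 5 was not. The log2 fold change was 0.27 (SE 0.13, FDR = 0.336 from edgeR's quasi-likelihood test). The ratio of Hist2h2be to Hist2h2ac CPM within a library was 1.81 to 3.86 in wild-type and 4.45 to 15.7 in mutant embryos, and the ranges did not overlap. As the pair was picked for its difference, this ratio is a description. The annotated Hist2h2be transcript is 2620 bases long, and the search found no stem-loop in it, while that of Hist2h2ac ends 57 bases after its stem-loop.

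**Figure D4:**
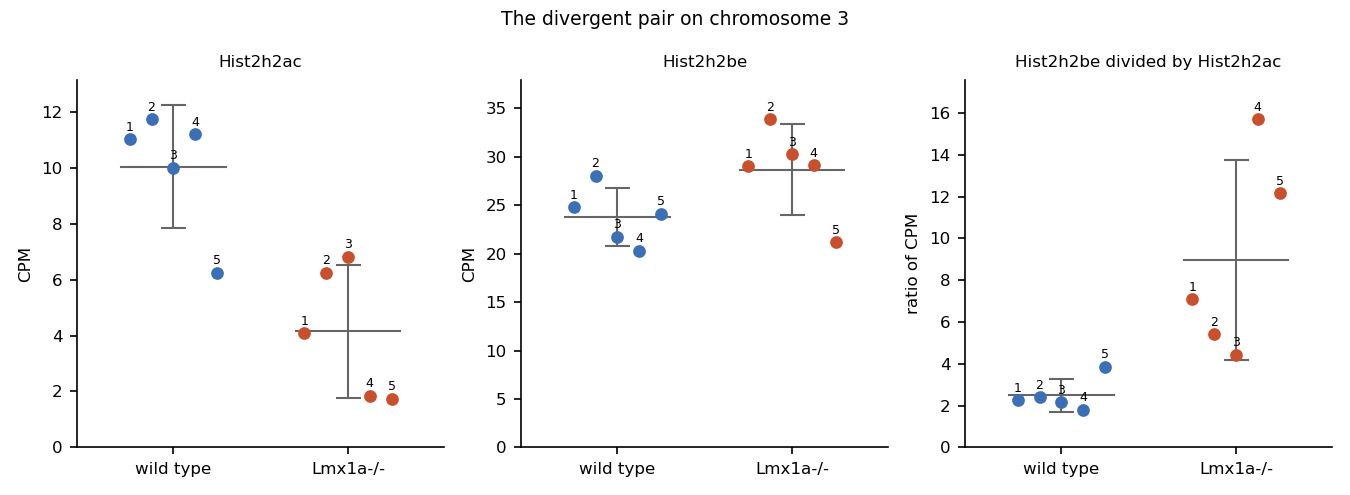
CPM of Hist2h2ac and of Hist2h2be, and their ratio, in each library, with points numbered by embryo (blue, wild type; red, Lmx1a-/-), lines at the mean and bars of 1 SD (n = 5 per genotype). The ratio lies between 1.81 and 3.86 in wild-type and between 4.45 and 15.7 in Lmx1a-/- embryos, highest in mutant embryos 4 and 5.

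In the other 7 pairs with both genes tested, the partners had log2 fold changes of the same sign in 6. As 50 of the 53 histone genes were below 0, most histone genes share a sign whether or not they are partners. Hist1h2bl and Hist1h2ai, with 279 bases between starts, were at -0.89 and -0.98. Hist1h2ag and Hist1h2bj, with 270 bases, were at -1.26 and -1.12. Hist1h2ac and Hist1h2bc, with 251 bases, were at -1.61 and -0.70, and the one pair of unlike sign besides the Hist2 pair was Hist3h2bb-ps and Hist3h2a (-0.63 and 0.40).

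Promoter windows of 300 bases, from 250 bases before to 50 bases after the start, were available in RefSeq for 46 of the 53 genes. TATAAA, searched like the others on both strands and on its own, was in 63.04% of these and 14.2% of all 27025 promoters. CCAAT was in 84.8% and 37.9%. It was in every window of an H1, H2A, H2B or H3 gene and in 3 of 10 windows of H4 genes. The octamer ATGCAAAT was in 21.7% and 1.75%, found in 5 of 10 H2A and 5 of 13 H2B windows and in none of the other classes. Windows of head-to-head partners overlap, so they are not independent. The window of Hist1h1b, the gene with the highest level per length (chr13:21780576-21780875, minus strand, GRCm38.p6), is printed with the same marking. TATAAA was found in 4 of the 5 windows of tested H1 genes.
Hist1h1b: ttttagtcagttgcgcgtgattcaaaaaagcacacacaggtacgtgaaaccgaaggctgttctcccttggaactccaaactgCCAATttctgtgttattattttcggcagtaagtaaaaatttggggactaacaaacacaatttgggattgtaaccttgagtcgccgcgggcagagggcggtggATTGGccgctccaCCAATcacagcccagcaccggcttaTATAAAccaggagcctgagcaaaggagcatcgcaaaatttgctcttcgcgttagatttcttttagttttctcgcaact

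Genes were also grouped by how far the annotated transcript runs past the stem-loop. The 15 tested genes whose transcript ends within 100 bases after the stem-loop had a median log2 fold change of -1.26, with 7 lower. The 20 genes whose transcript reaches further had a median of -0.90, with 6 lower. Among these 20, the 15 Hist1 genes had a median of -1.18, and the 5 genes of the smaller clusters had a median of -0.39. The 18 genes without a located stem-loop had a median of -0.94, with 4 lower. These groups were not compared by a test.

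Near-identical copies set a limit on these counts. Reads that fit more than 1 place are usually not counted. In Hist2h2aa1, Hist2h2aa2, Hist2h3b, Hist2h3c1 and Hist2h2bb, every stretch of 50 bases occurs in a transcript of another gene. The search for such stretches was not limited to histone genes. These genes had 0 counts in every library. Together with Hist1h2ap, 6 of the 17 untested genes had 0 counts, and none of the 17 exceeded 18 counts in a library. Among tested genes, the 21 with under 20% of their 100-base stretches shared had a median log2 fold change of -0.94 with 8 lower. The 32 with more sharing had a median of -1.02 with 9 lower. Stretches shared with an overlapping gene model at the same place also count here. The split therefore does not separate genes with copies from genes without. Values of single genes with much sharing, such as Hist1h2ai (88.4% of 100-base stretches) and Hist1h2bl (62.1%), are uncertain. Hist1h1a and Hist1h1b shared none of their stretches of 50 bases.

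Genes that transcribe, cut and remove histone mRNA had a median log2 fold change of 0.03. Of the 22 on this list, all tested, 1 was lower and 0 were higher by edgeR's quasi-likelihood test, with 2 lower and 2 higher at an unadjusted p under 0.05. Slbp, which binds the stem-loops printed above, had 52.4, 45.9, 52.2, 49.4 and 44.1 CPM in the wild-type and 51.1, 44.1, 48.1, 46.7 and 44.9 CPM in the Lmx1a-/- embryos, with interleaved values (log2 fold change -0.05, SE 0.08, FDR = 0.803 from edgeR's quasi-likelihood test). Npat, the coactivator that S-phase kinases switch on at histone genes, had 98.7 ± 5.17 and 101 ± 8.13 CPM (log2 fold change 0.03, SE 0.08). Lsm10 and Lsm11, both parts of the U7 particle that directs the cut, were at -0.72 (SE 0.28, FDR = 0.211 from edgeR's quasi-likelihood test) and -0.18 (SE 0.13), and Lsm10 had the lowest log2 fold change of the list. The gene past the threshold was Upf1, a helicase that takes part in histone mRNA decay, at -0.41 (SE 0.12, FDR = 0.0923 from edgeR's quasi-likelihood test). For histone chaperones, which carry histones to DNA, 1 of 22 was lower (Hjurp, -0.32) and 1 higher (Atrx, 0.28).

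Variant histone genes had a median log2 fold change of -0.11 over 11 tested genes, with 1 lower and 1 higher. Their sum was 1679 to 1936 CPM in the wild-type and 1720 to 1845 CPM in the Lmx1a-/- embryos, which overlapped. H2afx, a variant whose phosphorylated form marks broken DNA and which is known to make both a polyadenylated mRNA and one that ends at a stem-loop, had 164, 155, 135, 133 and 139 CPM in wild-type and 114, 109, 107, 124 and 108 CPM in mutant embryos, without overlap. It fell by 0.37 on the log2 scale (SE 0.08, FDR = 0.0322 from edgeR's quasi-likelihood test). H3f3b, which encodes the replacement histone H3.3, was higher by 0.31 (SE 0.08, FDR = 0.0697 from edgeR's quasi-likelihood test), also without overlap. H2afz (-0.39, SE 0.15), H3f3a (-0.31, SE 0.16) and H1f0 (-0.11, SE 0.08) did not pass, with FDR of 0.202, 0.365 and 0.523 from edgeR's quasi-likelihood test.

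Genes of DNA replication, which mark the same phase of the cell cycle, had a median log2 fold change of -0.08 over 43 tested genes. At an unadjusted p under 0.05, 6 were lower and 1 was higher. Past the threshold, 1 was lower, Tyms, the thymidylate synthase (-0.26, SE 0.07, FDR = 0.0872 from edgeR's quasi-likelihood test), and 0 were higher. Pcna, the sliding clamp of DNA polymerase, had 115, 104, 117, 89.9 and 99.8 CPM in the wild-type and 110, 99.0, 90.4, 101 and 100 CPM in the Lmx1a-/- embryos, with overlapping groups (log2 fold change -0.07, SE 0.09, FDR = 0.750 from edgeR's quasi-likelihood test). Of 21 G2 and M phase genes 1 was lower, Ube2c (-0.38), 0 were higher, 4 were lower and 0 higher at an unadjusted p under 0.05, and the median was -0.006. Mki67, found in cycling cells, had 1363 ± 110 and 1373 ± 206 CPM (log2 fold change 0.01, SE 0.10). The G2 and M phase sum was highest in mutant embryos 4 and 5, at 5668 and 5673 CPM, against 4213 to 5068 CPM in the other 8 libraries, while the DNA replication sums of these embryos were 2366 and 2364 CPM, within the wild-type range of 2229 to 2613 CPM.

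**Figure D5:**
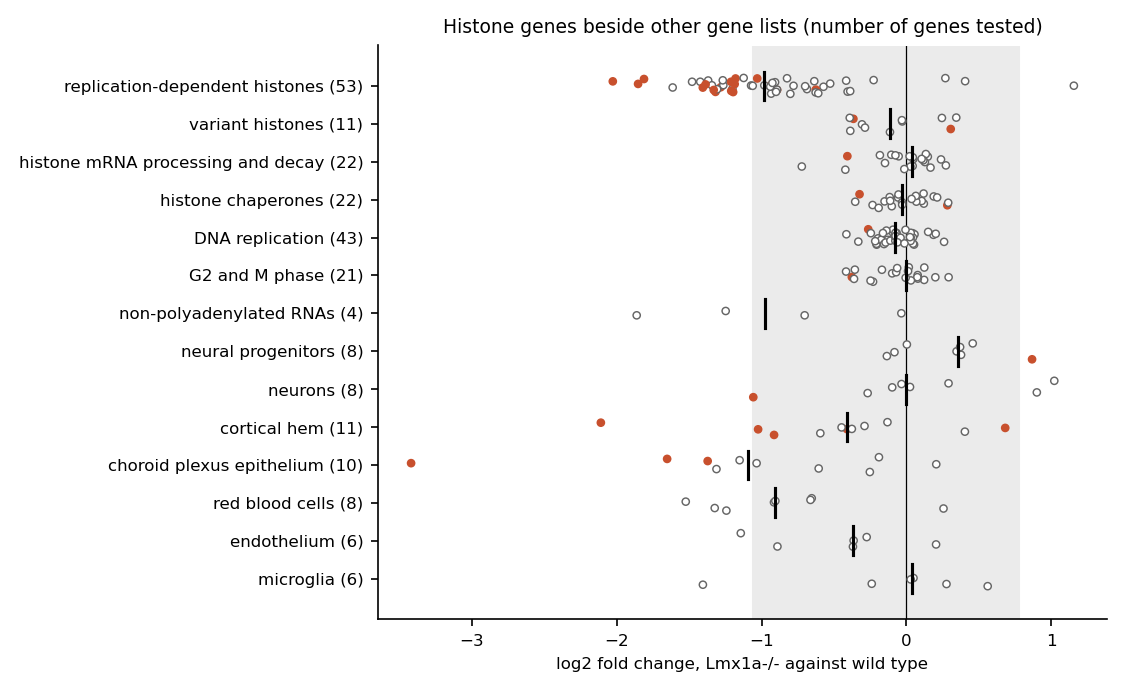
Log2 fold change (Lmx1a-/- against wild type) of each tested gene of the histone set and of 13 other lists, with the number tested in parentheses; filled points passed an FDR under 0.1, black bars are list medians, and gray marks the range from the 5th to the 95th percentile of all genes tested (-1.06 to 0.77). The histone median is at -0.98, while the medians of variant histones, processing and decay, chaperones, DNA replication and G2 and M phase lie between -0.11 and 0.03.

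Some other RNAs without a poly(A) tail and markers of other cells differed between the same groups, and their part in the histone result was not tested. Of 19 listed RNAs that lack a poly(A) tail, only Snord118, Scarna2, Scarna17 and Scarna9 passed the count filter. None of the 4 passed the threshold (2 lower at an unadjusted p under 0.05 and 0 higher), and their median log2 fold change was -0.97. Their sum was 4.95 to 7.42 CPM in the wild-type and 1.02 to 4.29 CPM in the Lmx1a-/- embryos, lowest in embryos 4 and 5. Over all 210 tested genes of small RNA biotypes, a set taken after these values were seen, the median was 0.04, with 3 lower and 0 higher. Overlap of these 210 with other genes was not examined. With the mean level of the 4 listed RNAs as a covariate, 0 histone genes passed in either direction by edgeR's quasi-likelihood test, where 0.365% of all genes were called lower. At an unadjusted p under 0.05, 6 were lower, beside 3.92% of all genes, and 1 was higher. The median log2 fold change of the histone genes was -0.31 in this fit, beside 0.0044 over all genes tested, and 42 of the 53 were below 0.

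Markers of the CH itself were lower for 4 of 11 genes, Wnt2b (log2 fold change -1.02), Msx1 (-2.11), Bmp7 (-0.91) and Wnt5a (-0.41), and higher for 1, Lmx1a (0.68), with a median of -0.41. Their sum was 1662 to 3194 CPM in the wild-type and 1897 to 3019 CPM in the Lmx1a-/- embryos, which overlapped. Markers of choroid plexus epithelium, which borders the CH, were lower for 3 of 10 tested genes, of 11 listed (median log2 fold change -1.09), and their sum was 122 to 470 CPM in the wild-type and 150 to 221 CPM in the Lmx1a-/- embryos. Ttr, the best known of them, was at 78.3 ± 66.9 and 7.23 ± 5.94 CPM. Red blood cell genes had a median of -0.91 over 8 tested genes of 9 listed, with 0 past the threshold by edgeR's quasi-likelihood test, 5 lower and 0 higher at an unadjusted p under 0.05, and with sums of 632 to 1473 and 267 to 573 CPM. Neural progenitor genes summed to 1588 to 2302 and 2608 to 3259 CPM, without overlap, with 1 of 8 higher, Vim (log2 fold change 0.87, FDR = 0.00183 from edgeR's quasi-likelihood test), and 4 higher and 0 lower at an unadjusted p under 0.05. Neuron genes had 1 of 8 lower, Reln, and at an unadjusted p under 0.05 they had 1 lower and 2 higher, Stmn2 (0.90) and Snap25 (1.02). Endothelium and microglia genes had 0 of 6 each past the threshold, with 1 endothelium gene lower at an unadjusted p under 0.05 and 0 microglia genes. With the choroid plexus mean as a covariate, 2 histone genes were lower, where 0.3% of all genes were, and their median was -1.20. At an unadjusted p under 0.05, 34 were lower in this fit, beside 5.59% of all genes, and 1 was higher. With the DNA replication mean, 6 were lower beside 2.07% of all genes, 22 were lower at an unadjusted p under 0.05 beside 8.04%, and the median was -0.80.

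The size of the difference depended on mutant embryos 4 and 5. Without both, 7 histone genes were lower, where 0.881% of all genes were, and 0 were higher. At an unadjusted p under 0.05, 25 were lower, beside 6.15% of all genes, and 2 were higher. The median log2 fold change was -0.65 in this fit, beside -0.0075 over all genes tested. The mean of mutant embryos 1 to 3 was below the wild-type mean for 49 of the 53 genes, which was not counted over all genes. Without embryo 4 alone 6 were lower beside 1.22% of all genes, and without wild-type embryo 1 or 2 there were 6 and 7, beside 1.36% and 1.47%. Of the 15 genes past the threshold that the naming rule covers, Hist1h1a, Hist1h1b, Hist1h1d, Hist1h2be, Hist1h2bm and Hist1h3g passed in each of the 10 fits that left out 1 embryo, whereas Hist1h4d passed in 2 of them, Hist2h2ac, Hist1h3c and Hist1h4j in 3 each, Hist1h3b in 6, Hist1h1e, Hist1h2bl and Hist1h2bk in 7 each and Hist1h2bf in 8. With wild-type embryo 1 against the 5 mutant embryos, all with Y-linked transcripts, 2 were lower, where 0.425% of all genes were, 24 were lower at an unadjusted p under 0.05 beside 4.47% of all genes, and the median was -1.30, in a fit that assumes the lone wild-type embryo varies like the mutant ones. With the Xist level as a covariate 1 was lower, where 0.12% of all genes were, 27 were lower at an unadjusted p under 0.05 beside 4.48% of all genes, and the median was -1.34.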

How the data were processed

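RNA of laser-captured CH (5 wild-type embryos, 5 Lmx1a-/-, all e13.5) was purified with a Pico Pure kit, and libraries were made with the SMARTER mRNA-Seq kit, whose first-strand priming is not given in the sources used here. Per the labels and the study's methods, the authors ran Trimmomatic on paired reads, used STAR 2.7.1a to place them on GRCm38 with Ensembl genes and deposited the unfiltered gene counts made by HTSeq 0.11.2. The strand setting is not given in the sources used here. Default alignment and counting leave out reads that fit several places, which lowers counts of near-identical histone genes.

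Each of the 52227 genes was used once (281 of 52508 rows were exact repeats). Symbols, positions and merged exon lengths came from GENCODE M21 (GRCm38), and 52083 genes had a symbol. Counts were scaled by TMM and tested with edgeR 4.0.16 in R 4.3.3 (quasi-likelihood test with legacy = TRUE, Benjamini-Hochberg FDR under 0.1, no covariate) over the 21664 genes in which 3 or more libraries had 10 or more counts. The SE is the size of the log2 fold change divided by the square root of F. Groups are the genotypes of the labels, and embryos are the replicates. The labels name no batch. On simulated counts of 20947 genes with 190 changed, 59.5% were recovered and 5.83% of 120 calls were false. Stem-loops were searched as a perfect stem of 6 bases starting with GG around a loop of 4 bases starting with TT.

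The members and lists were chosen with earlier results of these data known. Named histone genes are Hist1h1a, Hist1h1b, Hist1h2be, the 3 with the highest mean CPM and the 2 with the smallest p of each class, the 10 with the smallest p, all tested genes outside Hist1 and any called against the majority. Of the other lists, up to 3 genes with the smallest p were eligible, along with fixed examples such as Slbp and Pcna. Alternatives were other scaling, tests (likelihood ratio, DESeq2 1.42.0, legacy = FALSE), filters, an FDR of 0.05, embryos left out, a replicate block, repeated rows kept, mitochondrial genes left out, 4 covariates and another transcript length. Leaving out Lmx1a-/- embryos 4 and 5 together, using embryos with Y-linked transcripts, and the set of small RNA biotypes were chosen after seeing the data.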

Additional observations from a re-analysis of the deposited data

How the results depend on the processing

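No setting called a histone gene higher, and the median log2 fold change of the histone genes stayed below 0 in every fit. The count of lower histone genes was 17 and stayed between 14 and 24 under other scaling, tests and filters, with repeated rows kept and without mitochondrial genes. The share of all genes called lower in these fits ran from 1.45% to 4.51%. The count of lower histone genes was 7 at an FDR under 0.05, beside 1.16% of all genes. It was 1 with the Xist covariate, 2 with the choroid plexus covariate, 6 with the DNA replication covariate and 0 with the covariate of RNAs without a poly(A) tail, where the median moved to -0.31. Over all genes tested, 497 were lower in the fit without a covariate, against 26, 65, 449 and 79 in these 4 fits, and the cause was not tested. Without 1 embryo the count was 6 to 22, beside 1.22% to 2.83% of all genes, and the median -1.22 to -0.86. The count was 6 without wild-type embryo 1, 7 without embryo 2 and 11 without embryo 3, beside 1.36%, 1.47% and 2.655% of all genes. It was 6 and 10 without mutant embryos 4 and 5, beside 1.22% and 1.44%. Without both mutant embryos 4 and 5 it was 7, beside 0.881% of all genes. Among embryos with Y-linked transcripts, with 1 wild-type embryo, the median was -1.30. With the covariate of RNAs without a poly(A) tail, 42 of the 53 histone genes were below 0, against 50 without a covariate. Medians over all genes tested were 0.0044 and -0.0049 in these 2 fits. Of the named genes, 3 that had not passed the threshold changed sign: Hist2h3c2 was at 0.26 and Hist4h4 at 0.12 with the Xist covariate, Hist3h2bb-ps at 0.19 and Hist4h4 at 0.64 with the covariate of RNAs without a poly(A) tail, Hist4h4 at 0.11 without mutant embryos 4 and 5, and Hist2h3c2 at 0.29 and Hist4h4 at 0.068 among embryos with Y-linked transcripts. None of these passed the threshold.

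Embryos share a number across genotypes, but the correlations of same-numbered libraries lay between -0.099 and 0.013, which show no pairing by number. They cannot show which embryos shared a litter, and the labels do not say. With the number as a replicate block, 24 histone genes were lower, beside 1.63% of all genes, and the median was -1.18. Of 756 values of named histone genes over the alternatives, 612 kept their direction and side of the threshold, 127 fell short of it, 10 newly passed it and 7 changed sign. Measured over the transcript that ends nearest the stem-loop, the wild-type level of Hist1h2be was 18.7 in place of 10.5 CPM per kb.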
